A study of Bos taurus with 15 samples.

Results

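The response of bovine granulosa cells (GC) to L-lactate was described here against a control of equal added sodium, on 10 of the 15 arrays of the study. GC line the ovarian follicle and produce its estradiol. The 10 arrays are all those of the L-lactate and NaCl groups, 5 of each, and were taken by the treatment given in their labels without the use of any measured value. L-lactate treated GC received 30 mM of the sodium salt, NaCl treated GC received 30 mM NaCl as vehicle control, and untreated GC, on the other 5 arrays, received neither. All 3 groups were cultured for 8 days on collagen-coated wells in medium with FSH, IGF-1 and androstenedione. The cells were thawed from pools aspirated from small and medium follicles of abattoir ovaries, so that each pool mixes many animals at unrecorded stages of the cycle. Nothing states whether the 5 cultures of a group came from separate pools, and p-values therefore measure only the spread between these samples, which may be technical. The agents added to the groups differ in the anion, lactate or chloride, and effects of either cannot be told apart in a comparison of just these 2 groups.

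L-lactate is the end product of glycolysis. It crosses the plasma membrane together with a proton through monocarboxylate transporters and is converted to pyruvate by lactate dehydrogenase at the expense of NAD+, and it can also bind a cell surface receptor. In the ovary, glycolysing GC release it into the follicular fluid. Around ovulation GC stop making estradiol, remodel their matrix and turn into progesterone-producing luteal cells.

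Each array gave log2 signals of 26773 transcript clusters, the probe sets of single transcribed loci, and 18457 of them carry 1 gene symbol, for 18010 genes. The 10 array medians lay between 4.52 and 4.58. Any 2 arrays of the same group correlated with r between 0.996 and 0.997 across clusters, which are not independent replicates. The median SD between the 5 arrays was 0.0914 in L-lactate treated and 0.095 in NaCl treated GC on the log2 scale. All differences below are L-lactate minus NaCl in log2 units, and all adjusted p-values are those of limma with Benjamini-Hochberg adjustment over all clusters.

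The response was broad, mostly small, and asymmetric among its largest changes. A total of 505 clusters, or 1.89% of all, met both criteria for differential expression, an adjusted p below 0.05 and more than 1.5-fold change, and of these 344 were up- and 161 down-regulated by L-lactate. Without the limit on the fold change, 5941 clusters passed, 2870 higher and 3071 lower, so that the balance tipped the other way. Above 1.2-fold it was 1471 up- against 1304 down-regulated, above 2-fold 92 against 27, and above 3-fold 22 against 0. Of the 18010 genes, 1.65% were up- and 0.75% down-regulated, and at any fold 13.7% passed as higher and 13.7% as lower. All counts in gene lists below stand beside these shares. The median difference over all clusters was -0.01. The arrays had been quantile normalized, which sets this median close to 0 and bears on the balance of small differences, so that a shift shared by most transcripts could not be seen here. In 488 of the 505 differentially expressed clusters no L-lactate array reached the range of the NaCl arrays, which also held for 19.1% of all clusters.

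**Figure D1:**
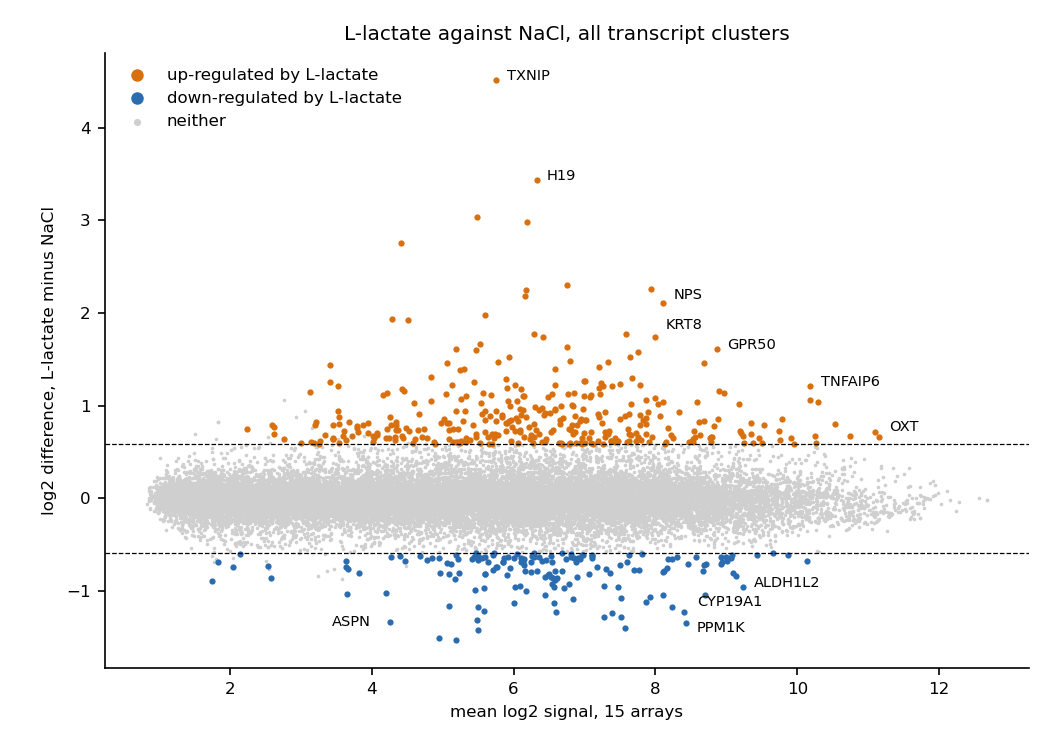
Log2 difference between L-lactate and NaCl treated GC (y axis) against the mean log2 signal over all 15 arrays (x axis), 1 point per transcript cluster. The 344 up-regulated clusters (orange) and 161 down-regulated clusters (blue) are shown with the names of some genes described in the text, and the dashed lines mark 1.5-fold. Increases reach further than decreases, and only increases exceed 3-fold.

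Calls depended on the signal. When all clusters were divided into 10 deciles by their mean signal, the lowest held 0 up- and 1 down-regulated clusters and the eighth 70 and 39. In the lower 5 deciles together 63 clusters were up- and 16 down-regulated, against 281 and 145 in the upper 5. The share of clusters without overlap between the groups was 0.56% in the lowest and 50.4% in the highest decile. The median difference was furthest from 0 in the sixth decile, at -0.02. Detection calls were not analysed here, so a missing call at low signal says little about the gene.

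**Figure D2:**
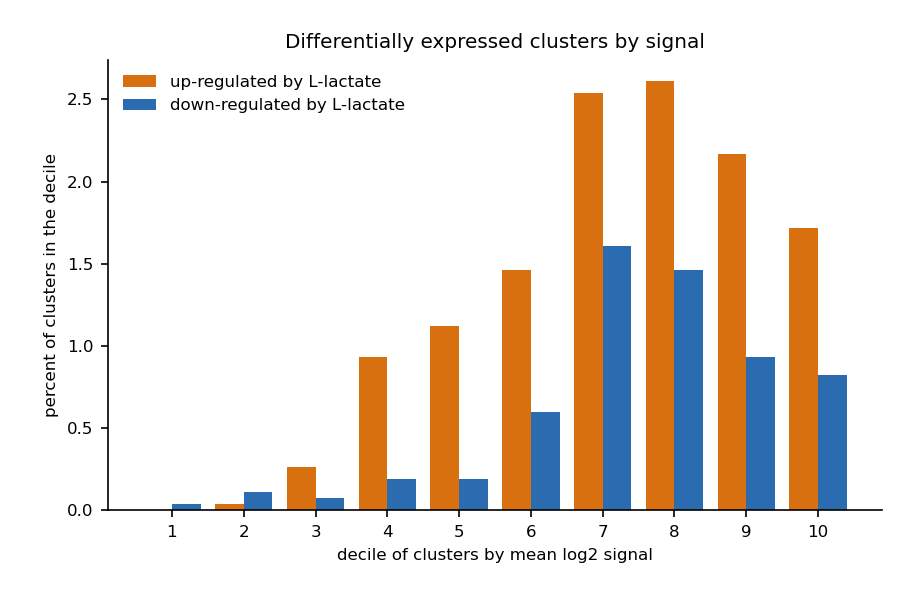
Percent of transcript clusters that were up-regulated (orange) and down-regulated (blue) by L-lactate relative to NaCl, in deciles of all clusters ordered by mean log2 signal (x axis, 1 lowest, 10 highest). Both shares are largest in the seventh and eighth deciles and close to 0 in the lowest.

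Genes outside the study's own discussion were among the leading changes, with increases of 2.63- to 4.31-fold. The largest belonged to a cluster annotated as NPS, the gene of neuropeptide S. It had 9.31, 9.48, 9.46, 9.39 and 9.08 in L-lactate treated GC, against 7.21, 7.36, 7.03, 7.41 and 7.16 in NaCl treated GC, a difference of 2.11 (SE 0.0897, limma adjusted p = 5.3e-10). The sources name this cluster differently, and its identity as NPS is unsure. The paper's table of top increases holds an uncharacterized gene of similar fold change that may be this cluster. It may therefore be new here in name only, and ANO3 would then lead these increases. ANO3, a membrane protein of the anoctamin family, had 7.13, 7.29, 7.19, 7.25 and 7.20 with L-lactate, against 5.55, 5.40, 5.41, 5.45 and 5.56 with NaCl, and rose 3.34-fold (adjusted p = 1.4e-11). KRT8, which pairs with KRT18 in the intermediate filaments of simple epithelia, had 8.77, 8.87, 8.94, 8.95 and 8.71, against 7.27, 7.20, 7.02, 7.30 and 6.78 with NaCl. The lowest L-lactate array thus stood at 8.71 and the highest NaCl array at 7.30, and the difference was 1.74 (SE 0.0833, adjusted p = 1.5e-09).

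Its partner KRT18 had 6.69, 6.86, 6.70, 6.69 and 6.35 with L-lactate, against 5.77, 5.38, 5.52, 5.81 and 5.33 with NaCl, and rose 2.14-fold. These were the 2 of 47 keratins on the array that were differentially expressed, and no other keratin passed at any fold. INA, an intermediate filament protein of neurons, averaged 6.41 ± 0.162 with L-lactate and 4.74 ± 0.178 with NaCl (SD, n = 5 each), a 3.18-fold increase. Among tubulins and microtubule-associated proteins, 3 of 25 rose and 0 fell, namely the dendritic protein MAP2 by 0.96 and the beta-tubulins TUBB2B by 0.93 and TUBB4A by 0.63. By contrast SEPTIN4, a filament-forming GTPase, fell 1.96-fold. Of 32 contractile and actin cytoskeleton genes 1 rose (TAGLN2, 0.63) and 1 fell (MYLK, -0.66).

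DUSP5, a nuclear phosphatase that switches off the kinase ERK, was among the most evenly separated genes. It had 7.77, 7.79, 7.86, 7.83 and 7.96 with L-lactate, against 6.21, 6.20, 6.21, 6.14 and 6.28 with NaCl, a 3.1-fold increase (SE 0.0508 on the log2 scale, adjusted p = 2.2e-11). RGN, or regucalcin, a calcium-binding protein, had 8.63, 8.72, 8.74, 8.67 and 8.57, against 7.14, 7.16, 7.18, 7.18 and 7.08 with NaCl, and rose 2.87-fold (adjusted p = 6.2e-12). In both genes no group had an SD above 0.0743. FSTL4, a follistatin-like protein, rose 3.06-fold, the melatonin receptor relative GPR50 3.05-fold, and IBSP, the bone sialoprotein, 2.99-fold. PLA2G7, the enzyme that inactivates platelet-activating factor, rose 2.87-fold, and TNFRSF10D, which in humans is a decoy receptor for the death ligand TRAIL, 2.78-fold. MLLT11, ELAPOR1, ASB9 and the cation channel gene TRPC5 completed the 15 largest increases with 2.79-, 2.76-, 2.68- and 2.63-fold.

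The largest decreases were smaller, between 1.96- and 2.52-fold. ASPN, or asporin, a small leucine-rich proteoglycan, had 3.71, 2.90, 3.49, 2.99 and 3.41 with L-lactate, against 4.37, 5.60, 4.56, 4.55 and 4.08 with NaCl, and fell by 1.33 on the log2 scale (SE 0.231, adjusted p = 0.00051). It also varied most within a group of all differentially expressed genes, with an SD of 0.577 between the NaCl arrays. ECM2, a related leucine-rich matrix protein, had 4.69, 4.77, 4.73, 4.42 and 4.62, against 5.75, 6.00, 5.83, 5.82 and 5.72 with NaCl, a 2.26-fold decrease (adjusted p = 8.9e-08). DDR2, a receptor kinase that is activated by fibrillar collagen, fell 2.06-fold, and HAPLN1, which links hyaluronan to proteoglycans, 2.02-fold.

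SST, the gene of somatostatin, had 5.04, 5.11, 4.84, 4.62 and 5.02 with L-lactate, against 5.95, 6.16, 6.06, 6.12 and 5.96 with NaCl, and fell 2.18-fold (adjusted p = 8.2e-07). CNIH3, an auxiliary protein of AMPA receptors, had 7.06, 7.03, 7.21, 6.91 and 7.12, against 8.30, 8.16, 8.14, 8.21 and 8.14 with NaCl, and fell 2.17-fold (adjusted p = 7.7e-09). The stress-induced chromatin protein NUPR1 had 6.72, 6.76, 6.83, 6.70 and 6.78, against 7.85, 7.94, 7.78, 7.83 and 7.74 with NaCl, and fell 2.1-fold (adjusted p = 1.5e-09). In all 3 genes the lowest NaCl array was above the highest L-lactate array. The other large decreases were those of CMBL, a hydrolase, by 2.1-fold, TBC1D8 and N4BP2L1 by 2.06-fold each, CCDC39, which the axoneme of motile cilia requires, by 2.05-fold, and PRSS35, QRFPR, a peptide receptor, and MOB3B by 1.96- to 1.99-fold.

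**Figure D3:**
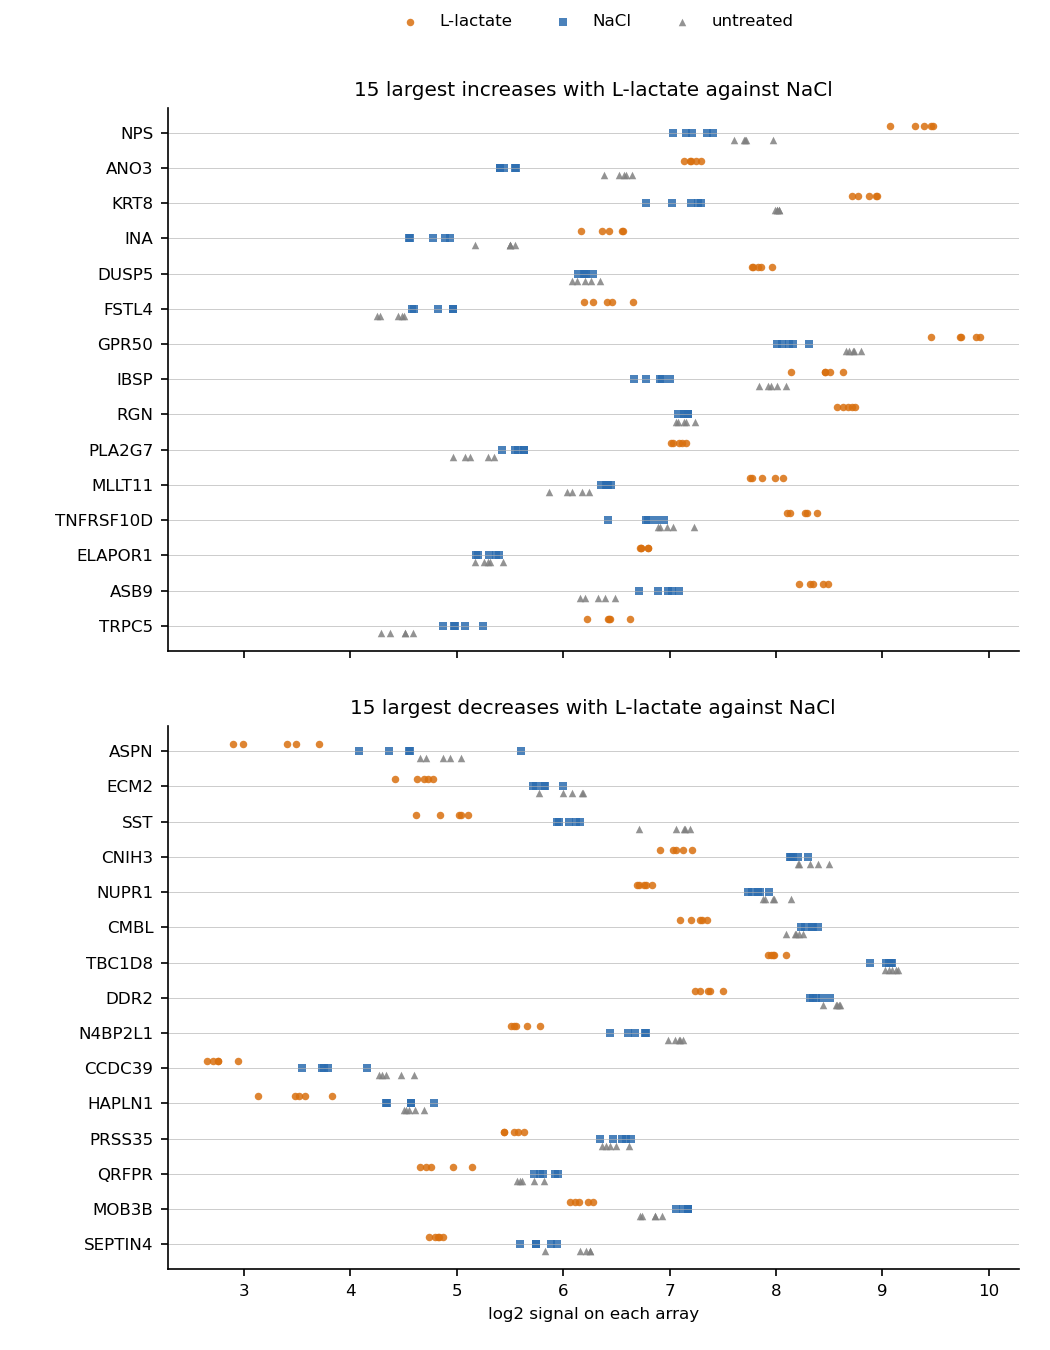
Log2 signal on each array (x axis) of the 15 largest increases (upper panel) and the 15 largest decreases (lower panel) among genes outside the study's own discussion, with L-lactate in orange circles, NaCl in blue squares and untreated GC in grey triangles. In all 30 genes the 5 L-lactate and the 5 NaCl arrays do not overlap, by the rule that chose them, whereas the position of the untreated arrays differs from gene to gene.

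Among the decile of clusters with the highest signal, the largest increases after GPR50 were those of TNFAIP6, whose product crosslinks the hyaluronan matrix of the expanding cumulus, with 10.72, 10.82, 10.83, 10.82 and 10.64 in L-lactate treated GC, against 9.67, 9.53, 9.47, 9.57 and 9.52 in NaCl treated GC (2.32-fold, limma adjusted p = 1.3e-10). ITPK1, a kinase of inositol phosphates, rose 2.19-fold, FABP3, a cytosolic fatty acid carrier, 2.09-fold, and CHST15, a sulfotransferase of chondroitin sulfate, 2.06-fold. The largest decreases of abundant transcripts after TBC1D8 were those of 2 enzymes of serine and folate metabolism. ALDH1L2, a mitochondrial folate enzyme, had 8.60, 8.55, 8.59, 8.51 and 8.33, against 9.45, 9.58, 9.43, 9.51 and 9.39 with NaCl, and PHGDH, the first enzyme of serine synthesis, had 8.64, 8.51, 8.64, 8.61 and 8.39, against 9.49, 9.45, 9.38, 9.41 and 9.24. VEGFC, the growth factor of lymphatic vessels, fell 1.75-fold and LRP8, a receptor of the LDL receptor family, 1.72-fold.

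Identity genes of the granulosa were lower with L-lactate and genes of luteal cells higher, mostly by less than 1.5-fold. Of 10 granulosa markers, 2 were down-regulated and 0 up-regulated, where 0.75% of all genes were down- and 1.65% up-regulated. CYP19A1, the aromatase that makes estradiol, fell 2.34-fold and AMH, the anti-Müllerian hormone of growing follicles, 1.67-fold, with 5.35, 5.14, 5.45, 5.35 and 5.70 in L-lactate treated GC, against 6.27, 6.03, 6.17, 6.13 and 6.08 in NaCl treated GC. At any fold, 7 of the 10 passed as lower and 0 as higher, where 13.7% of all genes passed as lower and 13.7% as higher. FOXL2, the transcription factor that maintains granulosa fate, had 7.16, 7.07, 7.23, 7.15 and 7.21, against 7.96, 7.74, 7.64, 7.77 and 7.62 with NaCl. Its difference of -0.58 (SE 0.064, limma adjusted p = 7.3e-06) ended just short of 1.5-fold. The paper, whose limit was 1.5-fold, describes FOXL2 as unaffected by L-lactate and takes this as a sign of unchanged GC identity. INHA, the alpha subunit of inhibin, differed by -0.41. The FSH receptor gene FSHR, FST, the gene of the activin antagonist follistatin, and the inhibin subunit gene INHBA differed by -0.29, -0.25 and -0.10, all past the adjusted p, and NR5A2, GATA4 and HSD17B1 by -0.01, -0.05 and -0.09, which did not pass.

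Of 6 luteal markers 4 passed as higher at any fold and 0 as lower. OXT, the oxytocin gene that the bovine corpus luteum expresses strongly, had 11.50, 11.52, 11.55, 11.59 and 11.43 with L-lactate, against 11.03, 10.80, 10.81, 10.92 and 10.73 with NaCl, a 1.58-fold increase (adjusted p = 2.5e-07). The prostaglandin F receptor gene PTGFR rose 1.51-fold, which is close to the limit. SCARB1, which takes up cholesterol from HDL, and CYP11A1, which makes the first steroid from it, each differed by 0.32 (adjusted p = 3.2e-07 and 1.5e-06), with no overlap between the groups. FDX1, the electron donor of CYP11A1, rose 1.81-fold, whereas the transcript of the last step to estradiol, CYP19A1, was lower. Both 11beta-hydroxysteroid dehydrogenases rose as well, HSD11B2 1.99-fold and HSD11B1 1.89-fold, although they are known for opposite reactions between cortisol and cortisone.

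**Figure D4:**
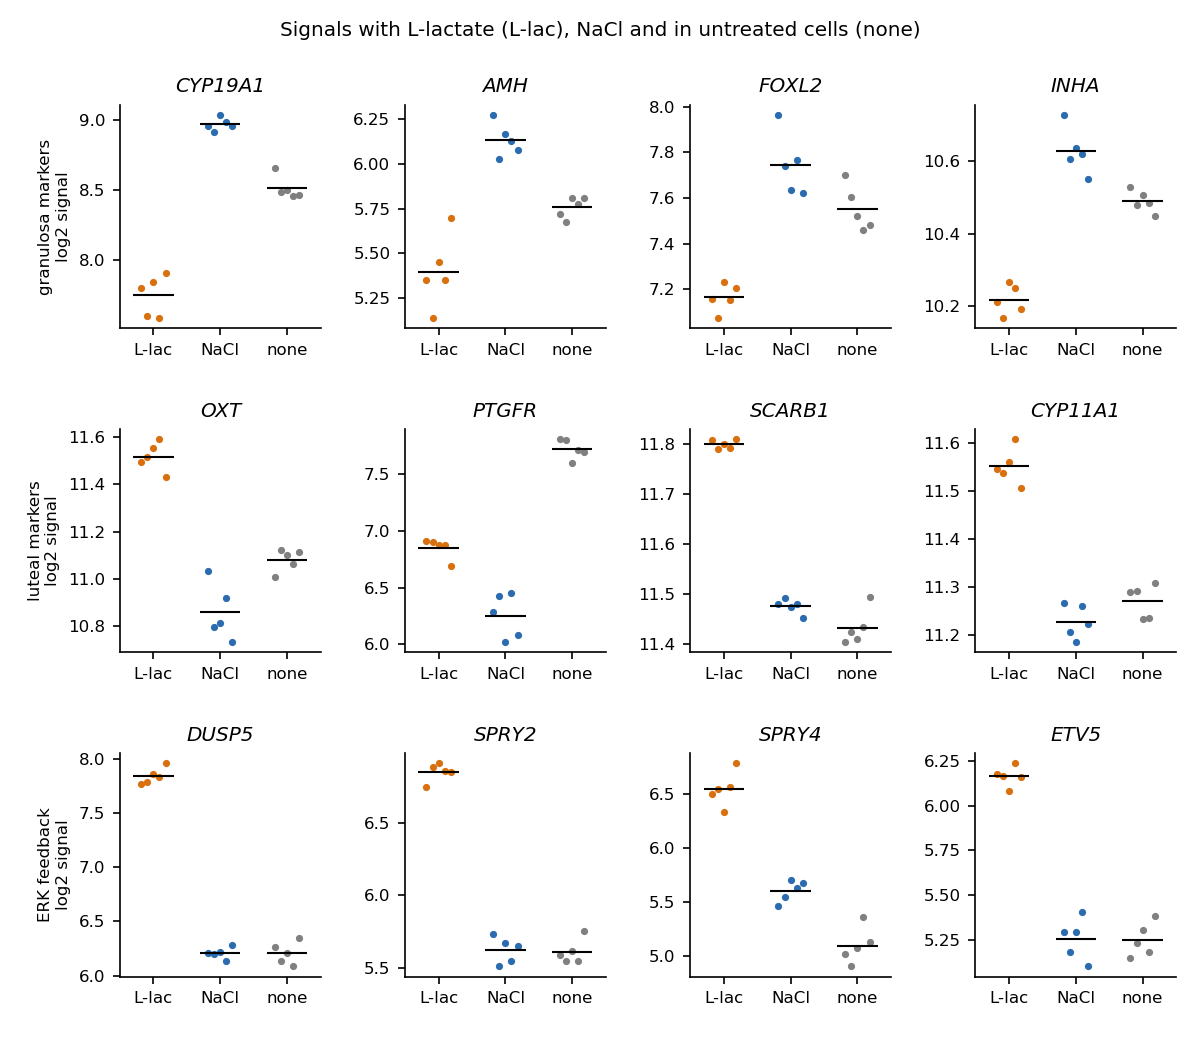
Log2 signal on each array (points) with the group mean (bar) of 12 genes in L-lactate treated, NaCl treated and untreated GC. Granulosa markers are in the upper row and luteal markers in the middle row. The lower row holds feedback inhibitors of ERK signalling and the ERK-driven ETS factor ETV5. The axes do not start at 0. In all 12 genes the L-lactate and the NaCl arrays do not overlap, while the untreated arrays lie with NaCl in some and apart from it in others.

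Markers of other cell types the pools could hold gave calls for stroma and surface epithelium only. None of 6 theca, 7 endothelial, 7 leukocyte, 7 oocyte, 5 smooth muscle and 4 erythrocyte markers was differentially expressed. These lists are so short that few calls would be met at the share of all genes. Of 7 markers of fibroblasts and stroma 2 rose, COL1A1 by 1.19 and PDGFRA by 0.59, or 28.6%, where 1.65% of all genes rose. At any fold 3 of these 7 passed as higher and 1 as lower, or 42.9% and 14.3%, against 13.7% of all genes in either direction. Of 5 markers of the ovarian surface epithelium KRT18 rose and MSLN fell (-0.78), or 20.0% in either direction. The summed linear signal of the stroma markers lay between 4771 and 5095 with L-lactate, 4390 and 4882 with NaCl and 5098 and 5459 in untreated GC, and that of the surface epithelium markers between 158 and 192, 137 and 167 and 157 and 186 in the same order. The smooth muscle markers summed to between 161 and 172 with L-lactate, 138 and 149 with NaCl and 119 and 137 in untreated GC, and the leukocyte markers to between 131 and 144, 114 and 124 and 127 and 143. In these 2 lists the sums with L-lactate were above those with NaCl without overlap, while the sums of the stroma, surface epithelium, theca, endothelial, oocyte and erythrocyte markers overlapped. The granulosa markers summed to between 8473 and 9011 with L-lactate, 9919 and 10440 with NaCl and 9109 and 9454 in untreated GC, which lay between the 2 other groups. The luteal markers summed to between 13590 and 14120, 11010 and 11550 and 11240 and 11730 in the same order, and here the untreated sums overlapped those with NaCl. The part of such cells in the increases of COL1A1, the keratins and other genes was not tested, and in RNA of whole cultures fewer cells of a type and less RNA per cell cannot be told apart.

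Feedback inhibitors of ERK and the ETS factors it drives were higher with L-lactate, and immediate early factors in part. Of 17 feedback inhibitors and ERK-driven ETS factors 6 were up- and 0 down-regulated, and 15 passed as higher at any fold, with a median difference of 0.46 against -0.01 over all genes. After DUSP5 came SPRY2, an inhibitor of receptor tyrosine kinase signalling, with 6.74, 6.89, 6.91, 6.86 and 6.85 in L-lactate treated GC, against 5.74, 5.51, 5.67, 5.55 and 5.65 in NaCl treated GC (2.34-fold, adjusted p = 5.6e-10). Its relative SPRY4 rose 1.92-fold and the ETS factor ETV5 1.88-fold. Of 24 immediate early transcription factors 5 rose and 1 fell past 1.5-fold, and at any fold 14 passed as higher, 1 as lower and 9 in neither direction. NR4A1, an orphan nuclear receptor, rose 2.34-fold, the AP-1 component FOSL1 2.07-fold and KLF10 1.85-fold, while MYC, a driver of growth and ribosome synthesis, fell 2.36-fold. These increases are relative to NaCl. Untreated GC averaged 8.19 for NR4A1, near the 8.20 with L-lactate, and 5.65 for FOSL1, near the 5.54 with NaCl. For KLF10 they averaged 7.51, between 8.05 with L-lactate and 7.16 with NaCl.

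Growth factor systems were changed in single members. Among 15 EGF-like ligands and ERBB receptors, EREG and AREG rose, by 2.25 and 0.79, and among 23 FGF ligands and receptors FGF2 rose by 0.95. In the IGF system 3 of 24 genes rose, namely IGF2 by 1.27, the secreted glycoprotein STC1 by 1.04 and PAPPA, a protease that releases IGF from its binding proteins, by 0.94. At any fold 5 of the 24 genes passed as higher and 9 as lower, and of the 15 EGF-like genes 4 and 2. Of 16 SMAD feedback and ID genes 3 rose and 0 fell. They were SMAD7 (0.77) and PMEPA1 (0.71), of the inhibitory branch of TGF-beta signalling, and the BMP target ID1 (0.59). BMP2 had 8.49, 8.54, 8.50, 8.53 and 8.62 with L-lactate, against 7.41, 7.48, 7.60, 7.48 and 7.62 with NaCl, and rose 2.03-fold (adjusted p = 3.2e-09), and the co-receptor ENG rose 1.9-fold. On the AMH side of the family both the hormone, AMH, and its receptor AMHR2 (-0.62) fell. Of 26 Notch and 14 hedgehog genes none was differentially expressed.

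Among 40 genes of cAMP signalling 3 rose and 1 fell, namely PDE4B, a cAMP phosphodiesterase, by 0.73, the kinase anchor AKAP12 by 0.71 and the kinase inhibitor PKIB by 0.60, against -0.82 for the anchor AKAP5.

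Receptors and channels known from excitable cells contributed further increases. Of 79 neurotransmitter, peptide and hormone receptors 7 rose and 1 fell, or 8.86% and 1.27%, where 1.65% of all genes rose and 0.75% fell. At any fold 15.2% of the receptors passed as higher and 8.86% as lower, against 13.7% of all genes in either direction. For the 55 ion channels below these shares were 14.5% and 7.27%, so the increases lay in single members. The nicotinic subunit CHRNA2 rose by 1.98, and the GABA-B subunit GABBR2 had 6.04, 6.00, 6.14, 6.09 and 6.13 with L-lactate, against 5.09, 4.81, 4.99, 4.93 and 5.04 with NaCl (2.15-fold, adjusted p = 3.5e-09). The serotonin receptors HTR1E and HTR1F rose 2.08- and 1.7-fold, although HTR1F had a signal of no more than 3.39 on any L-lactate array. Of 55 ion channels 3 rose and 1 fell, with the cation channel TRPC4, a close relative of TRPC5, at 1.31, the sodium channel SCN3A at 1.11, the potassium channel subunit KCNE4 at 0.66 and the calcium-activated potassium channel KCNMA1 at -0.62. Of 43 peptide hormones 5 rose, with NPY at 1.94 and STC1 second to it among those with a certain name, and SST fell.

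Many of the decreases were in enzymes and transporters of amino acids. Of 35 genes of the integrated stress response, which ATF4 drives when amino acids run short, 12 fell and 0 rose, 25 passed as lower at any fold and 2 as higher, and the median difference was -0.40. The largest decreases were those of the glutamine carrier SLC1A5 (-1.28), the cystine carrier SLC7A11 (-1.17), NUPR1 (-1.07) and the transcription factor DDIT3 (-0.96). The transcript of ATF4 itself differed by -0.24 and that of the asparagine synthetase ASNS by -0.58, both short of 1.5-fold. Of 24 serine, folate and one-carbon genes 4 fell, and after ALDH1L2 and PHGDH these were CBS, which starts the conversion of homocysteine to cysteine (-0.94), and the methionine synthase MTR (-0.60). Of 32 amino acid transporters 7 fell and 1 rose, with the neutral and large amino acid carriers SLC7A5 (-0.70) and SLC1A4 (-0.69) following those named. These lists share members, PHGDH and CBS among them, and are not separate evidence.

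Transcripts for the breakdown of branched-chain amino acids were lower at several steps. Of 21 genes 4 fell and 0 rose, and 13 passed as lower and 2 as higher at any fold. PPM1K, the phosphatase that activates the branched-chain ketoacid dehydrogenase, fell by 1.35 on the log2 scale. MCCC1, a carboxylase of leucine breakdown, had 6.07, 6.01, 5.98, 5.92 and 5.95 with L-lactate, against 6.87, 6.91, 6.82, 6.87 and 6.78 with NaCl (1.82-fold lower, adjusted p = 2.8e-09). DBT, the core subunit of the dehydrogenase, fell 1.63-fold and the cytosolic transaminase BCAT1 1.55-fold. Of 17 cytosolic aminoacyl-tRNA synthetases 1 fell past 1.5-fold, GARS1 for glycine (-0.61), but 11 passed as lower at any fold and 1 as higher.

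In nucleotide synthesis, PRPS2, which makes the activated ribose for purines and pyrimidines, fell 2.64-fold, the uridine kinase UCK2 fell 1.64-fold and RRM2, the ribonucleotide reductase subunit of S phase, rose 1.85-fold. DNA replication genes were higher, with 3 of 39 up- and 0 down-regulated and 21 higher against 2 lower at any fold. Besides RRM2 these were CDC6 (0.65) and GINS4 (0.60), which load and form the replicative helicase. Of 36 mitosis genes none reached 1.5-fold, yet 20 passed as higher and 0 as lower, with a median difference of 0.27. The spindle protein PRC1 differed by 0.43 (adjusted p = 8.8e-05) and the kinesin KIF20A by 0.51 (adjusted p = 0.00011). CDK2, the kinase of S phase entry, and CCND1, cyclin D1, rose by 0.65 and 0.96, and so did the CDK inhibitor CDKN1C by 1.07.

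Transcripts of cytosolic ribosomal proteins differed by a small step in the other direction. None of 43 reached 1.5-fold, 34 passed as lower and 0 as higher, and the median difference was -0.24. RPS18 averaged 10.31 ± 0.0122 with L-lactate and 10.60 ± 0.0485 with NaCl (SD, n = 5 each, adjusted p = 3.7e-06), and RPL22L1 differed by -0.53. Mitochondrial ribosomal proteins did not share this, with 12 higher, 15 lower and a median of 0.01 over 75 genes. Of 46 ribosome biogenesis genes 19 passed as lower and 2 as higher, RCL1 differing most clearly by -0.51. Ribosomal protein genes have many near-identical copies, so the share of each gene in its signal is uncertain. In the decile of clusters with the highest signal as a whole, 593 passed as higher and 766 as lower at any fold, with a median of -0.02.

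**Figure D5:**
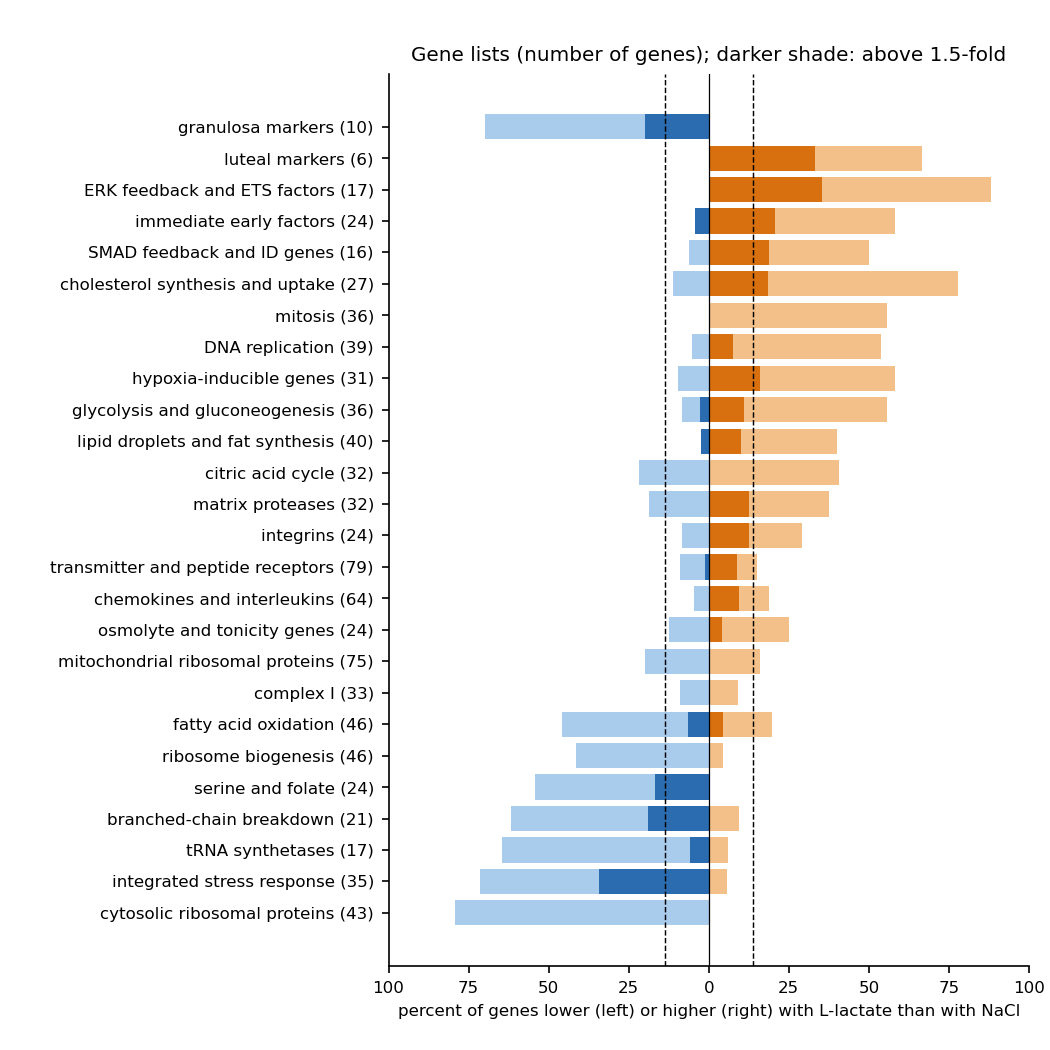
Percent of the genes of 26 lists that passed an adjusted p of 0.05 as higher (orange, to the right) or lower (blue, to the left) with L-lactate than with NaCl, with the part beyond 1.5-fold in the darker shade. Dashed lines mark the 13.7% of all genes that passed in either direction. Feedback inhibitors of ERK with ERK-driven ETS factors, cholesterol synthesis and mitosis extend to the right. Cytosolic ribosomal proteins, the integrated stress response and tRNA synthetases extend to the left.

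Transcripts of cholesterol synthesis and uptake, a list that also holds the exporter ABCA1, were mostly higher. Of 27 genes 5 were up- and 0 down-regulated, with 21 higher against 3 lower at any fold and a median difference of 0.32. Further known genes of the pathway, for which no cluster carries the symbol alone, were not analysed here. LSS, which closes the sterol rings, rose 1.51-fold, the early enzyme PMVK 1.51-fold and the sterol reductase TM7SF2 1.53-fold, all 3 close to the limit. The largest difference among the 5 was that of ABCA1, which exports cholesterol and is known as a gene switched on by its excess. It had 6.57, 6.57, 6.52, 6.63 and 6.77 in L-lactate treated GC, against 5.32, 5.39, 5.37, 5.38 and 5.17 in NaCl treated GC (2.44-fold, adjusted p = 2.1e-10). Among 40 genes of lipid droplets and fat synthesis 4 rose and 1 fell. LPIN1, a phosphatidate phosphatase, rose 2.17-fold, the lipoprotein lipase LPL 2.02-fold and G0S2, an inhibitor of the lipase PNPLA2, 1.66-fold, while PNPLA2 itself fell 1.53-fold.

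Fatty acid uptake and oxidation was mixed, with 2 of 46 genes up- and 3 down-regulated but 9 higher and 21 lower at any fold. The acyl-CoA synthetase SLC27A2 fell by 1.51 on the log2 scale and the peroxisomal oxidase ACOX2 fell 1.69-fold, against the increase of FABP3. ACSS2, the cytosolic acetyl-CoA synthetase, had 10.37, 10.39, 10.43, 10.39 and 10.30, against 9.73, 9.76, 9.65, 9.77 and 9.68 with NaCl, and rose 1.57-fold. Its mitochondrial counterpart ACSS1, named after its values were seen, had 3.95, 4.05, 4.00, 4.11 and 3.87, against 4.62, 4.62, 4.73, 4.47 and 4.63 with NaCl, and fell 1.53-fold. Both enzymes make acetyl-CoA from acetate, and their transcripts moved in opposite directions.

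Of 29 genes that handle lactate, pyruvate and alanine, 1 rose and 1 fell past 1.5-fold, or 3.45% in either direction, where 1.65% of all genes rose and 0.75% fell. At any fold 6 passed as higher and 4 as lower. SLC16A3, the monocarboxylate transporter of glycolytic cells, had 7.55, 7.52, 7.53, 7.50 and 7.40 with L-lactate, against 6.64, 6.53, 6.25, 6.29 and 6.13 with NaCl, a 2.19-fold increase (adjusted p = 2.1e-07). The cytosolic alanine transaminase GPT fell by 1.16 on the log2 scale. Of 36 genes of glucose transport, glycolysis and gluconeogenesis 4 rose and 1 fell, and 20 passed as higher against 3 as lower. The phosphofructokinases PFKP and PFKL rose 1.74- and 1.61-fold and the enolase ENO2 1.66-fold, while PCK2, the mitochondrial enzyme that feeds gluconeogenesis, fell 1.69-fold. Of 32 genes of the citric acid cycle and malate shuttle none reached 1.5-fold with an adjusted p below 0.05. At any fold 13 of them passed as higher and 7 as lower, or 40.6% and 21.9%, where 13.7% of all genes passed in either direction. The 33 complex I genes and 43 other genes of the respiratory chain and ATP synthase also held none beyond 1.5-fold, with medians of 0.00 and 0.02. At any fold 3 complex I genes passed as higher and 3 as lower, and 5 and 5 of the others.

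Of 31 hypoxia-inducible genes 5 rose, or 16.1%, and 0 fell, where 1.65% of all genes rose and 0.75% fell. At any fold 18 passed as higher against 3 as lower, or 58.1% and 9.68%, where 13.7% of all genes passed in either direction. NDUFA4L2, a hypoxia-induced relative of a respiratory chain subunit, rose by 2.25, BNIP3, a receptor for the removal of mitochondria, 1.81-fold and the MYC antagonist MXI1 1.68-fold. EGLN3, a prolyl hydroxylase that is itself a HIF target, had 5.77, 5.88, 5.82, 5.82 and 5.44 with L-lactate, against 4.93, 5.08, 4.48, 4.26 and 4.32 with NaCl (2.19-fold, adjusted p = 2.7e-05). Its NaCl arrays had an SD of 0.368, and its untreated arrays, at 6.35 ± 0.111 (SD, n = 5), were above both groups.

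TXNIP, which binds thioredoxin and restrains glucose uptake, rose 22.8-fold and its relative ARRDC4 by 2.98. The other 4 alpha-arrestins had differences between -0.15 and 0.06. Among 13 genes of the MYC, MAX and MLX network, MYC and MYCL (-0.72) fell and MXI1 rose.

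In the hyaluronan and proteoglycan matrix 4 of 29 genes rose and 3 fell. HAS2, which makes hyaluronan, rose by 2.75, and PTX3 and TNFAIP6, which organise it around the oocyte, by 2.30 and 1.21, against the decreases of ASPN and HAPLN1. Untreated GC averaged 4.38, 6.95 and 10.24 for HAS2, PTX3 and TNFAIP6. These lay between 5.80, 7.81 and 10.77 with L-lactate and 3.05, 5.50 and 9.55 with NaCl. Both chains of type I collagen passed, in opposite directions. COL1A1 had 7.91, 7.77, 7.82, 7.85 and 7.77 with L-lactate, against 6.76, 7.11, 6.30, 6.65 and 6.38 with NaCl (2.28-fold higher, adjusted p = 2.2e-06), whereas COL1A2 had 7.25, 6.93, 6.96, 7.27 and 6.97, against 7.95, 7.77, 7.40, 7.60 and 7.65 (1.51-fold lower, adjusted p = 0.0003). No other gene among 42 collagens was differentially expressed. Of 32 matrix proteases and inhibitors 4 rose and 0 fell, namely ADAMTS1, which cleaves versican around ovulation, by 0.98, SERPINB2, an inhibitor of plasminogen activators, by 0.89, MMP9 by 0.69 and the urokinase receptor PLAUR by 0.66. PLAUR averaged 9.08 in untreated GC, above the 8.97 with L-lactate. ADAMTS1, SERPINB2 and MMP9 averaged 6.33, 6.59 and 5.41 in untreated GC, below the 6.92, 6.78 and 6.19 with L-lactate. The integrins ITGB8, ITGA2 and ITGA4 rose by 0.76, 0.70 and 0.60, and 0 of 24 integrins fell.

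Vascular factors were split, with 2 of 37 up- and 4 down-regulated. The endothelin receptor EDNRB rose by 1.03, while SERPINF1, an inhibitor of vessel growth, the angiotensin receptor AGTR2 and VEGFC differed by -0.93, -0.81 and -0.80. In coagulation, F2RL1, a receptor cleaved by proteases, F5 and the tissue factor F3 rose by 1.18, 0.87 and 0.72, and F8 differed by -0.78. Of 64 chemokines, interleukins and receptors 6 rose and 0 fell. CXCL12 had 8.55, 8.47, 8.49, 8.50 and 8.45 with L-lactate, against 7.55, 7.57, 7.58, 7.44 and 7.74 with NaCl (1.89-fold, adjusted p = 3.2e-08), and its receptor CXCR4 rose 1.67-fold. XCL1 rose 1.74-fold and OSMR, a receptor for oncostatin M, 1.67-fold. In prostaglandin and leukotriene metabolism, LTC4S, which makes cysteinyl leukotrienes, and PTGIS, the prostacyclin synthase, rose by 2.18 and 1.25, and the phospholipase PLA2G6 differed by -0.64.

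Since both groups had received the same amount of sodium, genes that respond to osmolarity were looked at separately. Of 24 osmolyte and tonicity genes 1 rose and 0 fell, the median difference was 0.01, and 6 passed as higher and 3 as lower at any fold. The taurine carrier SLC6A6 had 6.77, 6.81, 6.73, 6.74 and 6.84 with L-lactate, against 6.01, 6.18, 6.23, 6.16 and 6.31 with NaCl and 5.24 ± 0.144 (SD, n = 5) in untreated GC, highest with L-lactate and lowest without either agent. The inositol carrier SLC5A3 differed by -0.40 (adjusted p = 3.2e-07). Of 33 acid-base transporters and carbonic anhydrases CA2 alone passed 1.5-fold (0.61, 95% interval 0.32 to 0.91), and its groups overlapped, with 5.26, 5.29, 5.38, 5.32 and 5.07 on the L-lactate arrays and 4.29, 5.17, 4.33, 4.64 and 4.83 on the NaCl arrays.

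Several families held no call, which for the smaller ones is near what the 1.65% of all genes up- and 0.75% down-regulated would give. These include 508 olfactory receptors, 262 zinc finger genes named ZNF, 52 TRIM genes, 47 proteasome and 48 translation initiation factor genes, 41 histones, 33 HOX and 36 forkhead genes, 35 kinesins and 46 ubiquitin proteases. The olfactory receptors had group means of no more than 5.67, where calls were fewer. Of the ZNF genes 13 passed as higher and 52 as lower at any fold. Small differences leaned the other way in the proteasome genes, with 18 higher and 5 lower, and in the kinesins, with 9 and 1. Among 27 chaperones of the endoplasmic reticulum none was differentially expressed, with HYOU1 at -0.51 and SEL1L at -0.47, and of 39 autophagy and lysosome genes none, although 14 passed as lower and 6 as higher. Of the 40 symbol families examined 15 held no differentially expressed gene, and of the 59 lists 8 held none, 22 held up-regulated, 5 down-regulated and 24 both kinds of genes. The solute carriers were the largest family with calls, 6 of 352 higher and 11 lower.

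Setting the untreated arrays beside these values separates the genes by the position of the NaCl control. That comparison shares the NaCl arrays with the one above, so the values are given side by side. In untreated GC, DUSP5 averaged 6.21 ± 0.103, RGN 7.13 ± 0.0711, ELAPOR1 5.29 ± 0.0946, ITPK1 8.59 ± 0.107 and SPRY2 5.61 ± 0.0871 (SD, n = 5 each). Their means with NaCl were 6.21, 7.14, 5.29, 8.59 and 5.62, so that in these 5 genes L-lactate stood apart from both other groups. PTGFR, in contrast, had 6.85 ± 0.0893 with L-lactate, 6.25 ± 0.196 with NaCl and 7.73 ± 0.0872 in untreated GC, and CA2 had 5.27 ± 0.115, 4.65 ± 0.367 and 6.07 ± 0.137 in the same groups. NaCl minus untreated was -1.47 and -1.42 (adjusted p = 4e-08 and 5.6e-06), and L-lactate lay between the 2 other groups. NR4A1 averaged 8.20 ± 0.166 with L-lactate and 8.19 ± 0.0944 in untreated GC but 6.97 ± 0.26 with NaCl, PTGIS 7.68 ± 0.070 and 7.58 ± 0.0895 but 6.43 ± 0.148, and ITGA2 7.98 ± 0.101 and 7.92 ± 0.0821 but 7.27 ± 0.137. In these 3 genes the NaCl group was the one set apart. SST showed another arrangement, with 4.93 ± 0.198 in L-lactate treated, 6.05 ± 0.0933 in NaCl treated and 7.05 ± 0.193 in untreated GC, and BMP2 the reverse order, with 8.54 ± 0.0504, 7.52 ± 0.0908 and 6.94 ± 0.0987.

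The spread within groups was widest in ASPN, H19, LHCGR, NPY and EGLN3. H19, an imprinted non-coding RNA, had 7.68, 8.03, 7.87, 7.99 and 7.38 with L-lactate, against 4.26, 5.21, 3.88, 4.16 and 4.22 with NaCl. Untreated GC averaged 6.84 for H19, between the 2 other groups. LHCGR, the receptor of the ovulatory hormone, had 5.70, 4.81, 4.72, 4.60 and 4.96, against 5.72, 5.90, 5.88, 5.67 and 5.62 with NaCl, and the L-lactate array at 5.70 reached into the NaCl range. Its difference of -0.80 (SE 0.158, adjusted p = 0.0015) is one of the 17 differentially expressed clusters whose groups overlapped. NPY had 5.45, 5.71, 5.58, 5.76 and 4.79 with L-lactate, against 3.74, 3.60, 3.06, 3.75 and 3.46 with NaCl, and the fifth L-lactate culture lay lowest in NPY, H19 and EGLN3. Among imprinted and DNA methylation genes, 4 of 29 rose, which besides H19 and IGF2 were NAP1L5 (1.10) and the growth inhibitor CDKN1C.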

How the data were processed

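Each culture gave RNA for 1 Bovine Gene 1.0 ST Array. The authors deposited log2 signals per transcript cluster, which were background-reduced, quantile normalized and summarized by RMA with the Affymetrix Expression Console 1.4.1.46, per the submitters' processing notes. The labels and the study's methods differ on the kit for RNA isolation (NucleoSpin and RNeasy Plus), and which was used is unsure. Neither scanner files nor detection calls nor scan dates were used here, so batches and signal over background could not be examined, and the number of arrays limits the precision. All 26773 clusters were tested without a filter.

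The platform annotation gives 1 symbol to 18457 clusters, several to 688 and none to 7628, and 17996 of 18166 single gene IDs matched the bovine RefSeq table. No gene was named from a cluster with several symbols, and where several clusters share a gene the one with the highest mean signal was used.

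The comparison was made with limma 3.58.1 (R 4.3.3), in 1 fit over all 15 arrays with a coefficient for each group and no block, and Benjamini-Hochberg adjustment over all clusters. The study's thresholds, an adjusted p below 0.05 and more than 1.5-fold change, defined differential expression. Intervals are 95% intervals of the fit. The smallest p of an exact two-sided permutation test with 5 arrays on either side is 0.00794, and no such test was used for single genes. On simulated data of 26773 clusters with 50 changed at each fold, the procedure called 43 at 1.7-fold, 49 at 2-fold and 50 at 3-fold, and 1 unchanged cluster. It called 0 at 1.3-fold, which the limit of 1.5-fold all but sets in advance. The simulated noise was independent between clusters, and far fewer clusters were changed than passed in the data. Tables were handled with Python 3.11.15, pandas 2.3.3, numpy 2.4.6 and scipy 1.17.1, and figures drawn with matplotlib 3.10.9.

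Named were the 15 largest increases and decreases among differentially expressed genes without overlap that the paper does not discuss, the 5 largest of each among the decile of clusters with the highest signal, in each list the differentially expressed members with the largest differences, at most 4 (or 2 with the smallest p where none passed), the 5 genes with the widest spread, and genes of the paper where a result turns on them. Exceptions, named after their values were seen, are ACSS1, ASNS, ATF4 and the genes set beside untreated cells. The members, lists and rules were chosen with earlier results of these data known, so lists are described by counts and medians and not tested. Tried as alternatives were the 10 arrays alone, the one-way ANOVA of the methods without moderation, a replicate block, only clusters above the median signal, arrays centred on their medians, a further quantile normalization, clusters with identical values counted once, and leaving out each array. Searches for promoter motifs were planned and not run, since no sequences were used here.

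Over all clusters together, the replicate numbers showed no pairing of the samples. After subtraction of the group means, arrays with the same number correlated between -0.0653 and 0.0655, and 0 of 15 pairs were above 0.1. Such a correlation over all clusters cannot exclude a pairing that shows in some genes only, and this was not tested.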

Additional observations from a re-analysis of the deposited data

Results flagged for a closer look

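Of 360 groups of 5 arrays, those of L-lactate and of NaCl for each of the 180 named genes, 19 held an array whose gap to its nearest neighbour exceeded the critical share of 0.71 of the range. Chance sets off about 1 in 20 groups. The arrays set off were spread over 4 of the 5 L-lactate and 4 of the 5 NaCl cultures, and none was set off in more than 4 genes. The rule misses an array that lies at the end of its group by smaller gaps. Among the 15 largest increases, the fifth L-lactate culture was lowest of its group in NPS, KRT8, INA, GPR50, IBSP and RGN. It was highest in DUSP5, FSTL4, PLA2G7, MLLT11 and TRPC5, and neither in the others.

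In L-lactate treated GC, the low values were those of ADAMTS1 (6.773, against 6.943 to 6.989 on the other arrays of its group), ATF4 (10.44, against 10.511 to 10.529), CCND1 (6.499, against 6.873 to 6.986), EGLN3 (5.439, against 5.771 to 5.881) and PTGFR (6.694, against 6.873 to 6.912), of which ATF4, EGLN3 and PTGFR were low on the array of the fifth culture. High values were those of CXCR4 (5.177, against 4.859 to 4.922) and FGF2 (6.773, against 6.577 to 6.62), both of the second culture, and of FST (10.994, against 10.893 to 10.922).

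In NaCl treated GC, the array of the second culture was high in H19 (5.213, against 3.884 to 4.258), AGTR2 (4.945, against 4.231 to 4.409) and PDE4B (4.491, against 4.095 to 4.177). The fifth culture was low in CDKN1C (4.514, against 4.842 to 4.912), FSHR (9.132, against 9.29 to 9.32), PRPS2 (7.855, against 7.985 to 8.027) and TBC1D8 (8.879, against 9.037 to 9.092). The first culture was low in ENO2 (5.541, against 5.793 to 5.853) and MTR (6.151, against 6.361 to 6.403) and high in KLF10 (7.251, against 7.116 to 7.155), and the fourth was high in CBS (7.687, against 7.497 to 7.544). Of these genes, differential expression was lost on leaving out a single array in PTGFR and MTR, whose lowest differences were 0.54 and -0.58.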

How the results depend on the processing

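Of the 505 differentially expressed clusters, 344 up- and 161 down-regulated, the counts stayed within 1.5 times under every alternative tried. They were 345 and 160 with the 10 arrays alone, 341 and 155 with the one-way ANOVA without moderation, 356 and 156 with arrays centred on their medians, 343 and 162 after a further quantile normalization, 343 and 160 with identical clusters counted once, and 281 and 145 among clusters above the median signal. With the replicate block they were 345 and 162, which changed no call beyond a few clusters (504 of 505 shared), and own replicate numbers were the best match in 4 of 15 pairs. Leaving out 1 array gave 335 to 356 up- and 162 to 184 down-regulated clusters, of which 475 to 488 were among the 505. The share of up-regulated among all calls lay between 65.1% and 69.5%. Of 160 differentially expressed named genes 13 lost 1.5-fold in at least 1 alternative without a change of direction, namely CA2, CDC6, COL1A2, GINS4, ID1, MTR, PDGFRA, PKIB, PMVK, PNPLA2, PTGFR, SLC6A6 and TUBB4A, and FOXL2 and ASNS passed it in 5 each. The small shifts of cytosolic ribosomal proteins (33 to 35 of 43 lower) and mitosis genes (17 to 20 of 36 higher) kept their direction in all of these, the clusters above the median signal set aside. Low signals limit what can be seen, since the 5 lower deciles of signal hold 79 of the 505 calls.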
